A study of Mus musculus with 10 samples.

Results

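The loss of Rb1 and Trp53 was read in mesenchymal stem cells of 2 tissues, and the change from wild-type to null cells in bone marrow was set against the same change in fat. For each gene the marrow change (null minus wild-type BM-MSC) had the fat change (null minus wild-type ASC) subtracted from it, over 8 arrays of 4 groups out of 10 arrays in the series. The genes described here are those that changed in opposite directions: autosomal, past the threshold in each tissue and in the difference between tissues, and of opposite sign. There were 1124 of them among 21528 autosomal genes tested. Of these, 615 were higher in null than in wild-type BM-MSC and lower in null than in wild-type ASC, and 509 ran the other way.

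BM-MSC are stromal cells grown from bone marrow and ASC are their counterparts from adipose tissue, both here from mice of the FVB strain. The wild-type groups are labelled WT, and their labels name neither the priming nor the virus, though the protocol speaks of infecting all cultures. The null groups are labelled Rb-/-p53-/- and as taken along the bone-forming lineage for 10 days. By the growth protocol their Rb and p53 alleles were flanked by loxP sites, the cells were first kept in osteogenic medium, and an adenovirus carrying Cre recombinase behind the general CMV promoter (Ad-CMV-Cre) then removed the flanked DNA in culture. Their source labels speak instead of null mice, and the sources used here do not settle which holds. Each group had duplicate independent cultures, taken in exponential growth at passages 2 to 5. Null BM-MSC are labelled tumorigenic and the other 3 groups non-tumorigenic. The remaining 2 arrays hold a line grown from a tumor that null BM-MSC formed. By the labels gene loss and priming went together in both tissues, and whether the virus differed as well is not settled. Each change from wild-type to null cells is a change in all that differed, and the parts cannot be told apart.

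The retinoblastoma protein holds back the E2F factors that drive DNA replication, and p53 halts the cycle or starts cell death after damage. Both also act on differentiation: Rb works with the bone regulator Runx2 and restrains fat cell formation, and p53 restrains bone formation. Marrow stromal cells make bone, marrow fat and the niche for blood stem cells, and adipose stromal cells are the reserve from which fat cells form. The matrix they lay down (collagens, small proteoglycans, basement membrane) and the signals they send (Wnt modulators, retinoic acid, chemokines) set the 2 tissues apart in the animal.

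All 8 arrays lay on 1 slide, with wild-type cultures in the first line of positions and null cultures in the second, and ASC to one side of BM-MSC within each line. An offset shared by a whole line cancels in the difference between tissues by construction. It does not cancel in the change within a tissue, and so can enter the signs by which these genes were chosen. Neither this nor an offset that differed between positions within a line was tested. Spots well above background made up 53.3% to 58.4% of an array, no spot was saturated, and duplicates correlated at r = 0.994 to 0.996 over all genes, a description since genes do not vary independently. Levels below are log2 signals over the 75th percentile of the array, and changes are log2 differences ± SE from limma. Both targeted genes were lower in null cells of both tissues. Rb1 read 1.31 and 1.31 in wild-type ASC and -1.91 and -1.97 in null ASC, and 1.90 and 1.92 in wild-type BM-MSC and 0.65 and 0.54 in null BM-MSC. Trp53 read 1.11 and 1.02 in wild-type ASC and -4.49 and -5.12 in null ASC, and 0.83 and 0.71 in wild-type BM-MSC and -0.89 and -1.11 in null BM-MSC. The fall was larger in fat: the difference between tissues was 1.93 ± 0.073 for Rb1 (adjusted p = 2.92e-05, limma with Benjamini-Hochberg adjustment) and 4.10 ± 0.28 for Trp53 (adjusted p = 0.000173). For Trp53 at least 1 of the 8 arrays was not well above background, so the size of its difference is less certain. Where the probes lie relative to the flanked exons was not determined, so these levels do not measure how much DNA was removed. By the same probe Rb1 read -1.98 and -1.97 in the tumor line, whose arrays were on another slide. That is close to null ASC and well below null BM-MSC. The groups labelled null were thus not alike in their Rb1 signal, and the reason was not tested.

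Null and wild-type BM-MSC differed at 39.5% of all 22596 genes tested (19.3% higher and 20.2% lower in null cells), null and wild-type ASC at 41.5% (20.3% higher and 21.2% lower), and the 2 changes differed from each other at 31.8% (7195 genes), each by limma with a Benjamini-Hochberg adjusted p under 0.05. Of the autosomal genes, 24.2% passed in both tissues, 4080 genes with the same sign and 1124 (5.22%) with opposite signs. Across all autosomal genes the 2 changes correlated at r = 0.28 (Pearson) and 0.32 (Spearman), a description over genes measured on 8 arrays of 1 slide with none shared between the 2 changes. Opposite signs made up 16.4% of the 6851 autosomal genes whose difference was called. A further 13.8% moved the same way but farther in ASC, 9.25% the same way but farther in BM-MSC, 26.8% passed in BM-MSC alone and 31.8% in ASC alone.

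**Figure D1:**
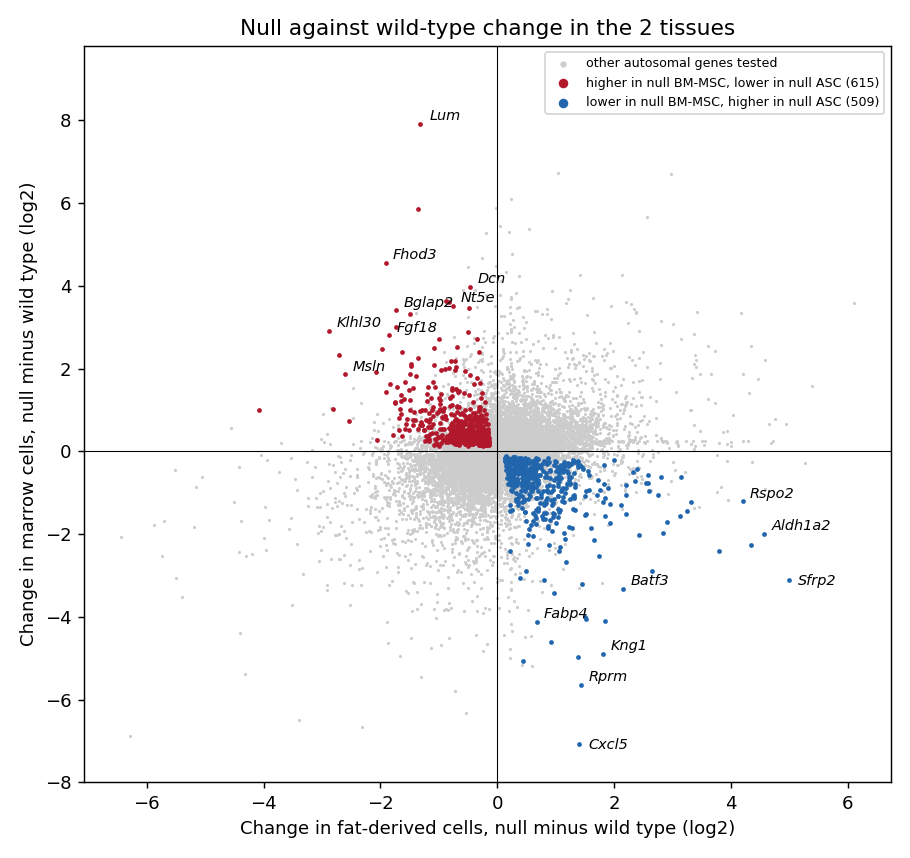
The change from wild-type to null cells in ASC (x axis, log2) against the same change in BM-MSC (y axis, log2), 1 point per autosomal gene tested, with opposite-sign genes in colour. The 615 genes that rose in BM-MSC and fell in ASC fill the upper left and the 509 that ran the other way the lower right, with Lum, at 7.92 in BM-MSC and -1.32 in ASC, the highest of the first kind.

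Most opposite-sign changes were modest. Among the 615 genes higher in null BM-MSC and lower in null ASC (2.86% of autosomal genes tested) the median change was 0.40 in BM-MSC and -0.45 in ASC, and among the 509 of the other kind (2.36%) it was -0.55 and 0.58. Over all autosomal genes tested the medians were 0.0076 and -0.029. The choice of genes fixes these signs. It also makes it likely that the arrays of null and wild-type cells do not overlap, and in neither tissue did they for any of the 1124. The same held for 11585 of all 21528 autosomal genes tested. The 2 counts fell to 321 and 239 with each array's median subtracted in place of its percentile and to 391 and 336 with no filter on dim probes, and the first to 398 without replicate 1 of null BM-MSC. In none of the settings did a gene of either set pass in the reverse direction. The settings reuse the same arrays, so this is no test of direction. The BM-MSC change was the larger for 294 of the 615 and 254 of the 509. Both changes reached 2-fold for 43 genes of the first kind (0.200%) and 62 of the second (0.288%). These last counts depended on how dim signals are read: with another background correction (normexp) they were 18 and 13, and with the authors' deposited values 31 and 34. In 79 of the 1124 genes at least 1 of the 4 groups was not well above background on either array, 20 in the first set and 59 in the second, and in 30 of these, 9 and 21, neither group of a tissue was. For such genes a change in the tissue of the dim group is given as a bound or not at all. A gene that is said below to be kept in so many of 17 settings passed all 3 calls there with the same signs. Counts of list members that rose or fell are to be read beside the shares of all genes tested. These were 19.3% risen and 20.2% fallen in BM-MSC and 20.3% and 21.2% in ASC. The difference was called higher in BM-MSC for 15.3% and in ASC for 16.6%.

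Genes were ranked by the smaller of their 2 changes, among those that every group had well above background on 1 array or both. Of the genes higher in null BM-MSC and lower in null ASC, Klhl30, a kelch-repeat protein best known from muscle, ranked first. Its level was 1.13 and 1.06 in wild-type ASC and -1.67 and -1.89 in null ASC, and -3.01 and -2.92 in wild-type BM-MSC and -0.0018 and -0.097 in null BM-MSC. The gene was highest in wild-type ASC and lowest in wild-type BM-MSC, and the null cells of both tissues lay between them with the order turned. Its change was 2.92 ± 0.17 in BM-MSC and -2.88 ± 0.17 in ASC, close to 7.55-fold up and 7.35-fold down. Proser2, a proline- and serine-rich protein, read -1.56 and -1.60 in wild-type ASC and -3.62 and -3.47 in null ASC, and -0.56 and -0.58 in wild-type BM-MSC and 1.91 and 1.90 in null BM-MSC. It was already higher in marrow among wild-type cells, and among null cells the tissues lay farther apart.

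Plcg2, a phospholipase that relays receptor signals, changed by 1.92 ± 0.064 in BM-MSC and -2.08 ± 0.064 in ASC. Its arrays read 2.38 and 2.27 in wild-type ASC and 0.29 and 0.21 in null ASC, and 1.08 and 1.07 in wild-type BM-MSC and 3.03 and 2.97 in null BM-MSC, so wild-type ASC and null BM-MSC were the high groups. The formin Fhod3, which builds actin filaments in sarcomeres, read -0.67 and -0.58 in wild-type ASC and -2.68 and -2.39 in null ASC, and -2.60 and -2.12 in wild-type BM-MSC and 2.14 and 2.25 in null BM-MSC. Null BM-MSC stood well above the other 3 groups, and wild-type BM-MSC and null ASC overlapped. Mesothelin (Msln), a surface protein of mesothelial cells, read 3.90 and 3.69 in wild-type ASC and 1.12 and 1.28 in null ASC, and -1.70 and -1.85 in wild-type BM-MSC and 0.11 and 0.064 in null BM-MSC. Both ASC groups stayed above both BM-MSC groups, and the distance between tissues shrank. Slc22a23, of the organic ion transporter family, changed by 2.40 ± 0.37 and -1.63 ± 0.37, with null ASC arrays far apart (-4.81 and -3.51), and was kept in 15 of 17 settings.

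**Figure D2:**
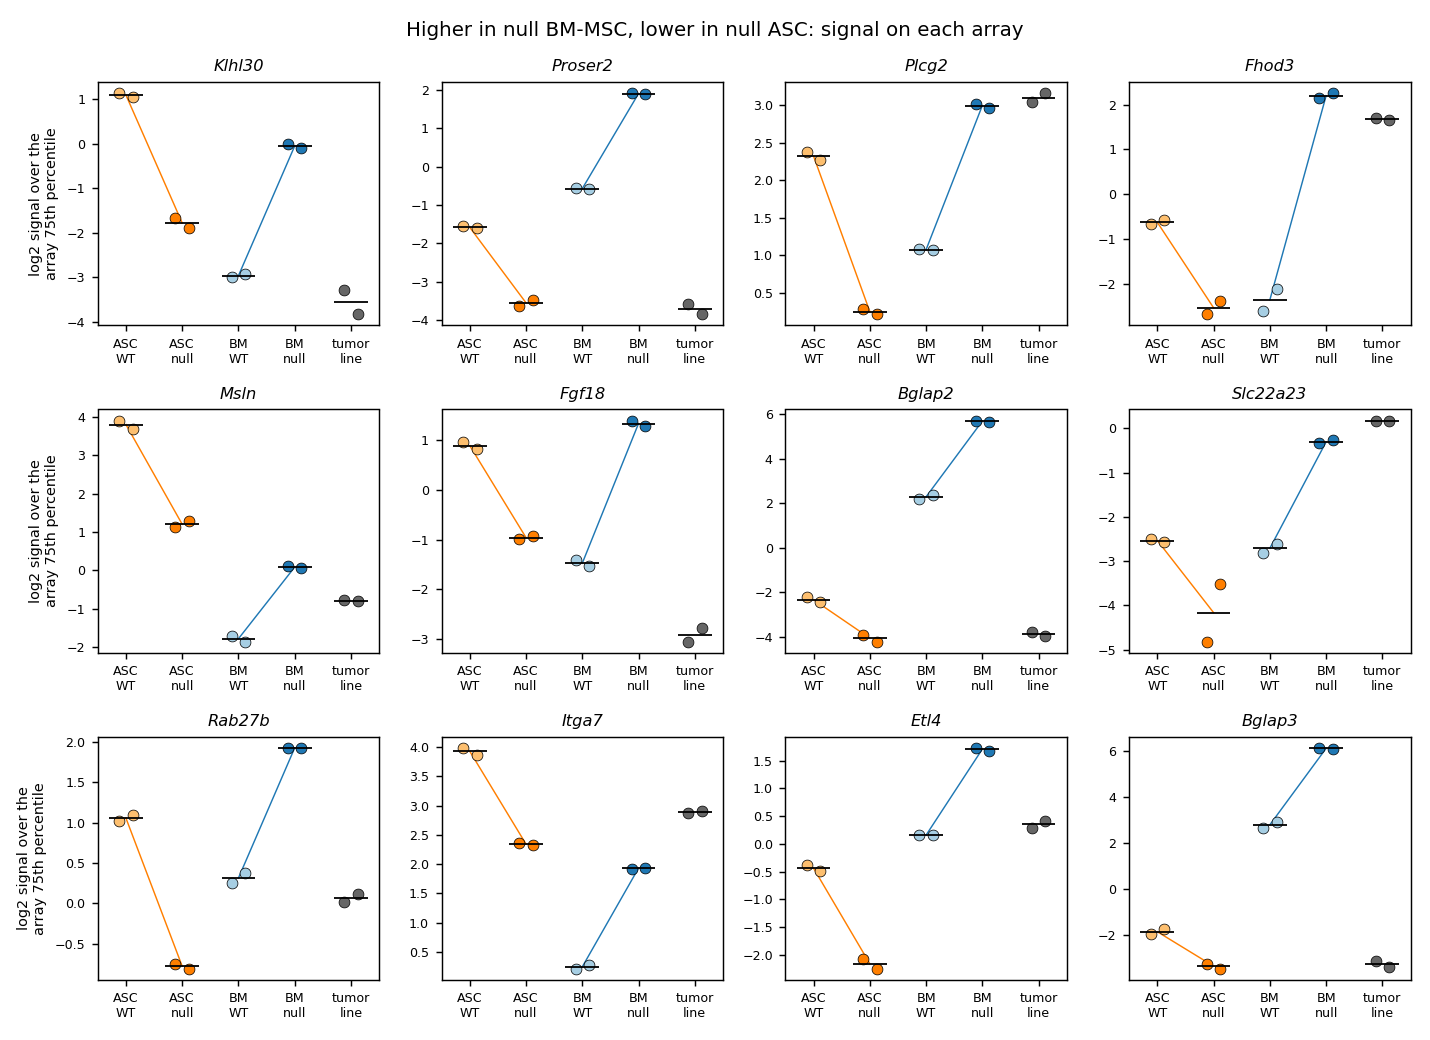
Signal on each array (y axis, log2 over the 75th percentile of that array) for the 12 leading genes that rose in null BM-MSC and fell in null ASC, by group on the x axis, with points for the 2 arrays of a group, short bars for their mean and lines from wild type to null within a tissue. The lines run down in ASC and up in BM-MSC in all 12 panels, from 1.13 and 1.06 to -1.67 and -1.89 and from -3.01 and -2.92 to -0.0018 and -0.097 for Klhl30. The tumor line is drawn for reference.

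Rab27b, a GTPase that brings secretory vesicles to the membrane, changed by 1.62 ± 0.063 in BM-MSC and -1.84 ± 0.063 in ASC. Its levels were 1.02 and 1.10 in wild-type ASC and -0.75 and -0.81 in null ASC, and 0.26 and 0.37 in wild-type BM-MSC and 1.93 and 1.93 in null BM-MSC. Etl4, a gene of the developing spine, changed by 1.55 ± 0.079 and -1.72 ± 0.079. For both genes null BM-MSC were the highest and null ASC the lowest group. Of genes with a dim group, Als2cl, a regulator of small GTPases, rose 5.04-fold in BM-MSC and was at least 2.39-fold lower in null than in wild-type ASC. Shisa2, an inhibitor of Wnt and FGF receptors, was raised in null BM-MSC at least 2.67-fold and lowered in null ASC at least 1.79-fold. The lens protein gene Crybb3 rose 2.78-fold in BM-MSC and was at least 2.14-fold lower in null ASC, a pattern kept in 10 of 16 settings.

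The osteocalcin genes moved together. Osteocalcin is the small protein that osteoblasts release into mineral, and mice carry it in a cluster of near copies. Bglap2 read -2.23 and -2.45 in wild-type ASC and -3.91 and -4.22 in null ASC, and 2.19 and 2.37 in wild-type BM-MSC and 5.71 and 5.66 in null BM-MSC. Bglap3 read -1.95 and -1.73 in wild-type ASC and -3.22 and -3.45 in null ASC, and 2.67 and 2.94 in wild-type BM-MSC and 6.16 and 6.11 in null BM-MSC, and Bglap read -4.31 and -4.32 in wild-type ASC and -4.96 and -5.30 in null ASC, and -0.27 and -0.089 in wild-type BM-MSC and 3.49 and 3.38 in null BM-MSC. All 3 were lowest in null ASC and highest in null BM-MSC, where they stood 10.6-fold, 10.03-fold and 12.2-fold above wild-type BM-MSC. In ASC the 3 changes were -1.73 ± 0.14, -1.50 ± 0.14 and -0.82 ± 0.12, all at low signal. For Bglap only 1 null ASC array was well above background, its fall was kept in 14 of 16 settings, and it was lost where a gene's probes were averaged. The copies may share signal, since the genes resemble each other, although no pair of these probes matched at more than 20 of 60 bases when aligned without gaps.

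The Bglap promoter is shown because these 3 neighbours on chromosome 3 were the bone matrix genes with the largest opposite changes. The 250 bases before its start (RefSeq, GRCm38.p6, chr3:88384467-88384716, minus strand) are given with the RUNX motif, here read on the other strand as ACCACA, the CCAAT box and the TATA box in capitals. The first bases of these matches stood 132, 90 and 27 bases before the start.
Bglap: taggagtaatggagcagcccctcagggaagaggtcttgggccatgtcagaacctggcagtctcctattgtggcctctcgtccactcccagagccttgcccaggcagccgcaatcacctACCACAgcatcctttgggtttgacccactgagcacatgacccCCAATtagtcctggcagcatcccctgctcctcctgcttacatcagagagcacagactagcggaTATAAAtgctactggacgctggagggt
These windows were searched on both strands for 5 short motifs: RUNX as TGTGGT, the TATA box as TATAAA, AP-1 as TGANTCA, E2F as TTTCCCGC or TTTGGCGC, and the CCAAT box as CCAAT. No motif of the set contains another. The RUNX letters were in 14.0% of all 32851 promoters of the table, in 11.1% of those of autosomal genes tested, in 11.1% of the 568 promoters of genes higher in null BM-MSC and lower in null ASC, and in 13.1% of the 449 of the other set. For the TATA box the 4 shares were 12.4%, 7.77%, 9.15% and 6.46%, for AP-1 6.75%, 5.06%, 6.87% and 6.24%, for E2F 1.30%, 2.08%, 1.58% and 1.56%, and for the CCAAT box 33.8%, 34.6%, 34.5% and 33.4%. A match is a description of letters and not a bound site.

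Elsewhere in the bone list the other opposite-sign members ran against osteocalcin. Tnfrsf11b (osteoprotegerin, the decoy receptor that slows osteoclasts) changed by -0.56 ± 0.093 in BM-MSC and 0.49 ± 0.093 in ASC, and Enpp1, which makes the mineral inhibitor pyrophosphate, by -0.96 ± 0.081 and 0.41 ± 0.081. Enpp1 was kept in 15 of 17 settings. Its opposite signs ended, and its difference turned to 0.23, where a gene's probes were averaged. It also did not pass with each array's median subtracted. In all, 4 of 18 autosomal members of the bone list had opposite signs, 2 in each direction, beside 5.22% of all autosomal genes tested, and the median difference of the list was 0.22. None of the 10 osteoblast transcription factors had opposite signs: 6 rose and 1 fell in BM-MSC and 2 rose and 2 fell in ASC, and their median difference was 0.44. The median difference over all autosomal genes tested was 0.015.

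Matrix genes follow by kind. Small leucine-rich proteoglycans coat collagen fibrils and set their width. Lumican (Lum) read 3.41 and 3.39 in wild-type ASC and 2.0 and 2.17 in null ASC, and -5.34 and -4.94 in wild-type BM-MSC and 2.79 and 2.76 in null BM-MSC. It was nearly dark in wild-type BM-MSC, where only 1 array was well above background, and null BM-MSC reached a level above both null ASC arrays. The change was 7.92 ± 0.13 in BM-MSC and -1.32 ± 0.13 in ASC. Decorin (Dcn), which lies beside Lum on chromosome 10, read 8.47 and 8.43 in wild-type ASC and 7.93 and 8.05 in null ASC, and 1.98 and 2.15 in wild-type BM-MSC and 6.07 and 6.03 in null BM-MSC. Here the tissues drew closer: ASC stayed higher in both genotypes, by less among null cells. Fibromodulin (Fmod) changed by 0.34 ± 0.077 and -0.42 ± 0.077 and was kept in 13 of 17 settings. These were 3 of 10 proteoglycans tested (30.0%, beside 5.22% of all autosomal genes), all in 1 direction.

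Of 20 collagens tested, 5 rose in null BM-MSC and fell in null ASC. Col18a1 ran the other way, which made 30.0% of opposite sign, beside 5.22% of all autosomal genes tested. The basement membrane chains Col4a1 and Col4a2, which are read from a shared start region, changed by 1.93 ± 0.058 and 1.50 ± 0.073 in BM-MSC and by -0.56 ± 0.058 and -0.71 ± 0.073 in ASC. Col4a1 read 5.60 and 5.69 in wild-type ASC and 5.12 and 5.05 in null ASC, and 2.89 and 2.98 in wild-type BM-MSC and 4.84 and 4.91 in null BM-MSC. ASC kept the higher level throughout, and null BM-MSC came close to null ASC without overlap. Col8a1, a short-chain collagen of vessel walls and cornea, read 0.75 and 0.63 in wild-type ASC and -0.81 and -0.78 in null ASC, and 0.96 and 1.07 in wild-type BM-MSC and 2.87 and 2.87 in null BM-MSC, so wild-type cells of both tissues were close and null cells far apart. Col12a1 (0.27 and -0.55) and Col5a2 (1.42 and -0.26) completed the group. Col18a1, the source of endostatin, changed by -0.90 ± 0.045 in BM-MSC and 1.18 ± 0.045 in ASC. Over the whole list, 10 rose and 1 fell in BM-MSC and 10 rose and 6 fell in ASC.

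Enzymes that cut matrix and their inhibitors had the highest share of opposite signs among the lists with at least 10 members tested. It was 9 of 20 (45.0%), beside 5.22% of all autosomal genes tested, and 7 of the 9 rose in null BM-MSC and fell in null ASC. Mmp14, the membrane-bound protease that activates Mmp2, read 3.53 and 3.74 in wild-type ASC and 2.80 and 2.70 in null ASC, and 3.84 and 3.93 in wild-type BM-MSC and 4.73 and 4.73 in null BM-MSC. Mmp2, the gelatinase it activates, read 5.31 and 5.48 in wild-type ASC and 4.69 and 4.85 in null ASC, and 5.27 and 5.24 in wild-type BM-MSC and 6.01 and 5.99 in null BM-MSC. Wild-type cells of both tissues were close for each of these, and null BM-MSC were the highest and null ASC the lowest group. Timp3, a matrix-bound inhibitor of such proteases, changed by 0.67 ± 0.081 and -1.56 ± 0.081. Mmp13, the collagenase of cartilage and bone, read 3.48 and 3.62 in wild-type BM-MSC and 5.04 and 4.94 in null BM-MSC, and was at least 1.85-fold lower in null than in wild-type ASC. Adamts1 (1.41 and -0.57) and Adamts9 (0.57 and -0.26) moved the same way. Mmp23 (-0.40 and 0.31) and Adamts2 (-0.18 and 0.37), a procollagen-processing enzyme, ran the other way. The list's median difference was 0.78.

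Of 24 integrins and laminins, which tie cells to basement membrane, 5 rose in null BM-MSC and fell in null ASC. These were 20.8% of the list, beside 5.22% of all autosomal genes tested, and 0 ran the other way. The median difference was 0.78. The laminin-binding Itga7 read 3.99 and 3.86 in wild-type ASC and 2.36 and 2.32 in null ASC, and 0.22 and 0.28 in wild-type BM-MSC and 1.92 and 1.94 in null BM-MSC. ASC stayed higher, but the distance between tissues was far smaller among null than among wild-type cells. The laminin chain Lama5 changed by 0.75 ± 0.19 and -1.40 ± 0.19 (kept in 13 of 17 settings), Itga3 by 0.83 ± 0.10 and -0.53 ± 0.10, and the collagen-binding Itga11 by 0.75 ± 0.063 and -0.34 ± 0.063. Itgb5 (0.27 and -0.48) was the fifth. Over this list, 16 rose and 2 fell in BM-MSC and 7 rose and 9 fell in ASC.

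Elastic fibre and matrix glycoprotein genes were split. Of 26 tested, 5 rose in null BM-MSC and fell in null ASC and 3 ran the other way. Opposite signs came to 30.8%, beside 5.22% of all autosomal genes tested, and the median difference was 0.20. Tenascin C (Tnc), a glycoprotein of remodelled matrix, changed by 1.46 ± 0.15 and -0.65 ± 0.15, kept in 15 of 17 settings, and Loxl2, which crosslinks collagen, by 0.66 ± 0.094 and -0.49 ± 0.094. Loxl1 (0.34 and -0.28), Loxl3 (0.32 and -0.21) and Ltbp1 (0.67 and -0.20), which stores TGF-beta in matrix, moved the same way. Fibulin 1 (Fbln1) changed by -1.13 ± 0.091 and 0.85 ± 0.091, versican (Vcan), a large water-binding proteoglycan, by -1.46 ± 0.048 and 0.48 ± 0.048, and fibrillin 1 (Fbn1) by -0.27 and 1.33. Versican read 2.72 and 2.64 in wild-type ASC and 3.17 and 3.16 in null ASC, and 4.0 and 3.93 in wild-type BM-MSC and 2.51 and 2.51 in null BM-MSC, so that wild-type BM-MSC were its brightest group and null BM-MSC its dimmest.

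Growth factor and contact signals had opposite-sign members in both directions. Fgf18, a ligand that steers bone and cartilage growth, read 0.96 and 0.81 in wild-type ASC and -0.99 and -0.93 in null ASC, and -1.42 and -1.54 in wild-type BM-MSC and 1.39 and 1.27 in null BM-MSC. Its high groups were wild-type ASC and null BM-MSC, well apart from the other pair. The receptor Fgfr1 changed by 0.72 ± 0.051 and -0.29 ± 0.051, and the IGF-binding protein Igfbp2 by 1.97 ± 0.14 and -0.73 ± 0.14. The mannose-6-phosphate receptor Igf2r (0.76 and -0.24) was the fourth. Fgf7, a stromal ligand for epithelial cells, ran the other way and read 2.05 and 1.94 in wild-type ASC and 2.55 and 2.50 in null ASC, and 6.43 and 6.38 in wild-type BM-MSC and 4.49 and 4.29 in null BM-MSC. It stayed far higher in marrow in both genotypes. Of 24 genes of this axis, 4 rose in null BM-MSC and fell in null ASC and 1 did the reverse. That was 20.8% of opposite sign, beside 5.22% of all autosomal genes tested, and the median difference was 0.57.

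Of 15 Notch and Hedgehog genes, the ligands Dll1 (1.67 ± 0.086 and -1.11 ± 0.086) and Jag1 (0.48 ± 0.056 and -0.67 ± 0.056) and the receptor Notch2 (0.50 ± 0.072 and -0.31 ± 0.072, kept in 15 of 17 settings) rose in BM-MSC and fell in ASC. The growth arrest protein Gas1, a Hedgehog co-receptor, ran the other way (-0.79 ± 0.079 and 1.24 ± 0.079). Of 32 guidance cues, 5 moved like the Notch ligands and 2 did the reverse. The ephrins Efna5 (0.69 ± 0.070 and -0.77 ± 0.070), Efna1 (0.57 ± 0.11 and -0.61 ± 0.11) and Efnb2 (0.41 ± 0.052 and -0.81 ± 0.052), membrane-bound ligands of Eph receptors, were among the 5, with the semaphorins Sema3b (0.54 ± 0.058 and -1.35 ± 0.058) and Sema7a (0.60 and -0.38). The reverse held for Sema4a (-0.39 and 1.15) and the netrin receptor Unc5c (-0.22 in BM-MSC, with wild-type ASC not well above background). Opposite signs came to 26.7% and 21.9% of these lists, beside 5.22% of all autosomal genes tested. Their median differences were 0.040 and 0.23.

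Contractile and muscle genes gave smaller counts, all in 1 direction. Opposite signs came to 15.4% of smooth muscle, 18.8% of cytoskeleton and 28.6% of skeletal muscle genes tested, beside 5.22% of all autosomal genes. Smooth muscle myosin (Myh11) read -2.19 and -2.10 in wild-type ASC and -3.62 and -3.38 in null ASC, and -4.01 and -3.83 in wild-type BM-MSC and -1.76 and -1.55 in null BM-MSC. The kinase Mylk, which activates such myosin, changed by 0.89 ± 0.070 and -0.74 ± 0.070. These were 2 of 13 smooth muscle genes. In the cytoskeleton list, Fhod3 was joined by the formin Daam1 (0.29 ± 0.085 and -0.71 ± 0.085, kept in 10 of 17 settings) and the actin-binding Nexn (0.55 ± 0.040 and -0.17 ± 0.040, kept in 10 of 17), 3 of 16. Skeletal actin (Acta1) changed by 1.64 ± 0.098 and -0.40 ± 0.098 (kept in 15 of 17), and troponin T1 (Tnnt1) by 0.54 ± 0.091 and -0.33 ± 0.091 (kept in 10 of 17). The muscle determination genes Myod1, Myog and Ckm were not well above background in any of the 4 groups, and Pax7 only on 1 wild-type BM-MSC array.

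Among surface markers by which such stem cells are sorted, Nt5e (CD73, which makes adenosine) read -2.88 and -2.75 in wild-type ASC and -3.82 and -3.31 in null ASC, and -2.52 and -2.12 in wild-type BM-MSC and 1.16 and 1.24 in null BM-MSC, and its opposite signs were kept in 14 of 17 settings. Null BM-MSC stood 11.5-fold above wild type, while the ASC groups lay close to each other. Cd200, an immune-restraining surface protein, changed by 2.72 and -0.35. The vascular receptor Flt1 read 2.10 and 2.12 in wild-type ASC and -0.64 and -0.76 in null ASC, and -1.27 and -1.02 in wild-type BM-MSC and -0.027 and -0.22 in null BM-MSC. It was highest in wild-type ASC and lowest in wild-type BM-MSC. The complement protein C2 changed by 0.55 ± 0.041 and -0.94 ± 0.041, the extracellular superoxide dismutase Sod3 by 0.78 ± 0.079 and -0.45 ± 0.079, the mitochondrial Sod2 by 0.25 ± 0.046 and -0.26 ± 0.046, and the cytokine Tgfb1 by 0.74 ± 0.039 and -0.33 ± 0.039. The calcium-binding S100b changed by 2.03 ± 0.18 and -0.70 ± 0.18, kept in 13 of 17, and S100a16 by 0.54 ± 0.053 and -0.30 ± 0.053, while S100a3 ran the other way (-0.57 ± 0.11 and 0.71 ± 0.11).

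In the other direction, lower in null BM-MSC and higher in null ASC, Sfrp2, a secreted protein that binds Wnt ligands, ranked first by the smaller of its 2 changes. Its levels were -3.01 and -3.47 in wild-type ASC and 1.49 and 2.03 in null ASC, and 7.53 and 7.48 in wild-type BM-MSC and 4.42 and 4.37 in null BM-MSC. Wild-type BM-MSC were the brightest and wild-type ASC the dimmest group, and null cells of the tissues moved toward each other without meeting. The change was -3.11 ± 0.21 in BM-MSC and 5.0 ± 0.21 in ASC, 8.63-fold down and 31.99-fold up. Batf3, a transcription factor of the AP-1 family, read -3.44 and -3.28 in wild-type ASC and -1.19 and -1.21 in null ASC, and -0.77 and -0.92 in wild-type BM-MSC and -4.16 and -4.17 in null BM-MSC, so that the order of the tissues turned.

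Aldh1a2, the enzyme that makes retinoic acid in embryo and mesothelium, read -2.11 and -2.08 in wild-type ASC and 2.43 and 2.52 in null ASC, and -0.044 and -0.16 in wild-type BM-MSC and -2.10 and -2.11 in null BM-MSC. Null BM-MSC fell to the level of wild-type ASC, and null ASC rose above every other group. Kininogen (Kng1), the precursor of bradykinin, read -3.27 and -3.39 in wild-type ASC and -1.79 and -1.26 in null ASC, and 4.93 and 4.70 in wild-type BM-MSC and 0.072 and -0.23 in null BM-MSC. Its neighbour Kng2 moved the same way, and the 2 probes matched at 22 of 60 bases at most. Rprm (reprimo, induced by p53 and able to halt the cell cycle) read 2.02 and 1.98 in wild-type ASC and 3.38 and 3.50 in null ASC, and 0.51 and 0.60 in wild-type BM-MSC and -5.48 and -4.71 in null BM-MSC, with only 1 null BM-MSC array well above background. It rose 2.71-fold in ASC, and its difference between tissues, -7.08 ± 0.31, ran from -7.47 to -4.72 over the settings.

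**Figure D3:**
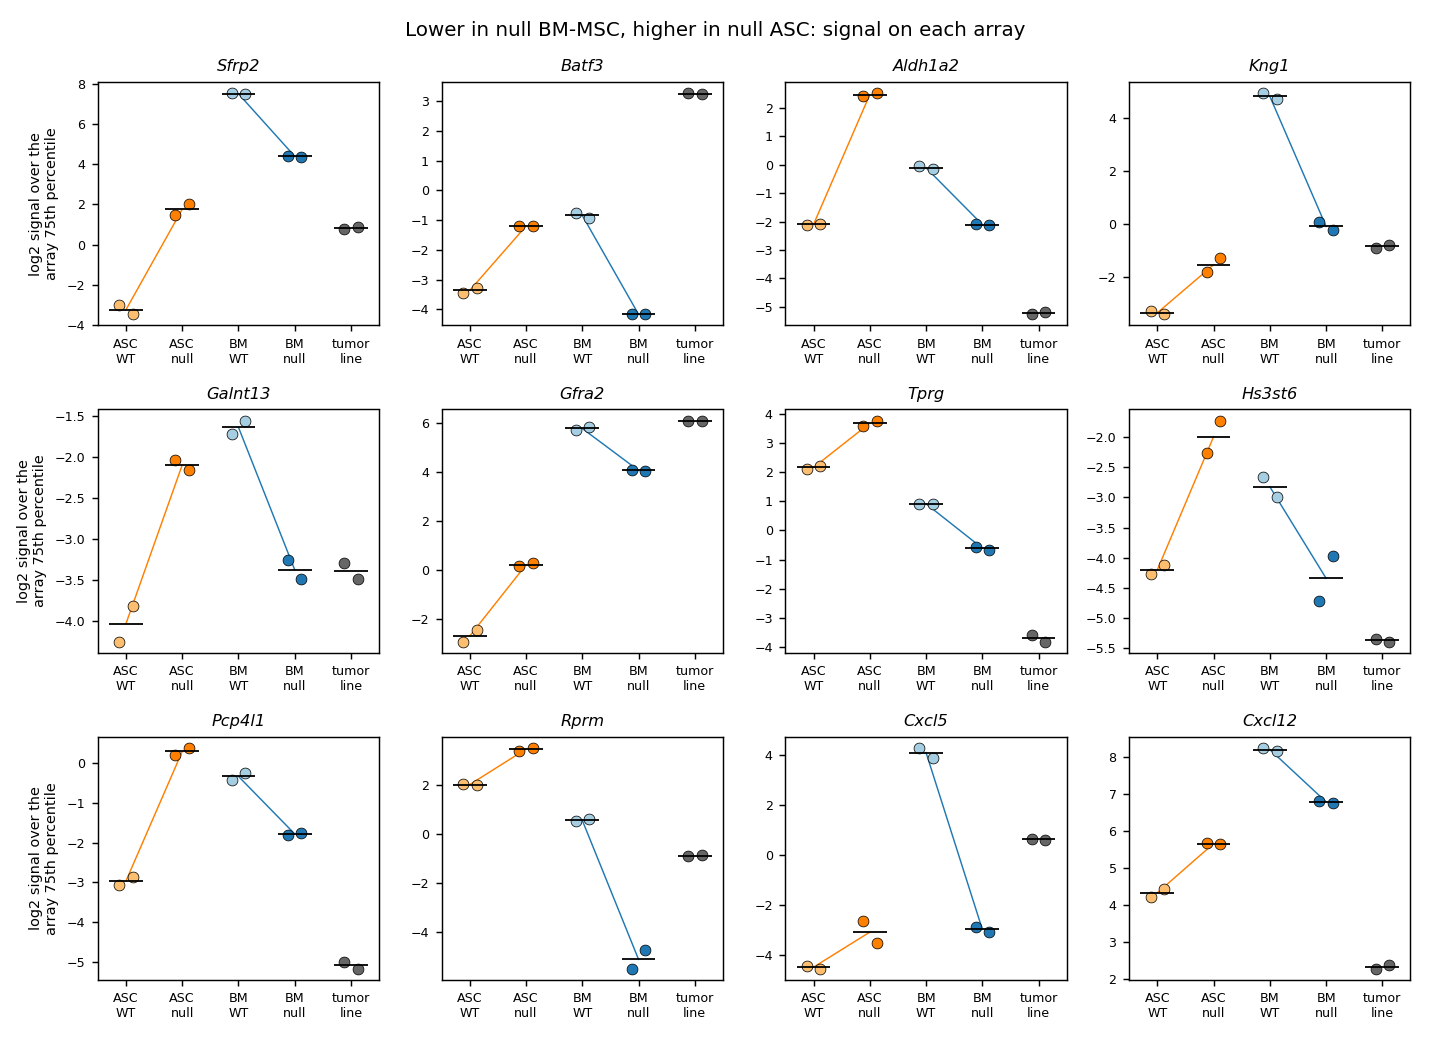
Signal on each array (y axis, log2 over the 75th percentile of that array) for the 12 leading genes that fell in null BM-MSC and rose in null ASC, by group on the x axis, with points for the 2 arrays of a group, short bars for their mean and lines from wild type to null within a tissue. The lines run up in ASC and down in BM-MSC in all 12 panels, from -3.01 and -3.47 to 1.49 and 2.03 and from 7.53 and 7.48 to 4.42 and 4.37 for Sfrp2. The tumor line is drawn for reference.

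Gfra2, a receptor for neurturin, changed by -1.71 ± 0.14 in BM-MSC and 2.90 ± 0.14 in ASC, and stayed higher in marrow throughout. Galnt13, which starts sugar chains on proteins, changed by -1.73 ± 0.16 and 1.93 ± 0.16, and Hs3st6, which sulfates heparan, by -1.52 ± 0.28 and 2.21 ± 0.28. Tprg changed by -1.52 ± 0.095 and 1.52 ± 0.095 and Pcp4l1 by -1.45 ± 0.11 and 3.26 ± 0.11. Of these, Tprg was higher in ASC in both genotypes, and Galnt13, Hs3st6 and Pcp4l1 turned their order. Of genes with a dim group, the muscle adhesion gene Bves rose 13.8-fold in ASC and was at least 1.27-fold lower in null BM-MSC. Zmat4, a zinc finger protein, was at least 1.97-fold lower in null BM-MSC and at least 1.91-fold higher in null ASC. The noradrenaline transporter Slc6a2 was at least 1.14-fold lower and at least 9.75-fold higher, kept in 11 of 16 settings.

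The Wnt pathway, which favours bone over fat in stromal cells, held 10 opposite-sign genes among 34 tested (29.4%, beside 5.22% of all autosomal genes). Of the 10, 7 were lower in null BM-MSC and higher in null ASC. Among ligands these were Wnt4 (-0.89 in BM-MSC and 1.90 in ASC) and Wnt5b (-0.80 and 1.19). Among agonists of the R-spondin family, Rspo2 read -5.35 and -4.56 in wild-type ASC and -0.80 and -0.71 in null ASC, and 4.88 and 4.88 in wild-type BM-MSC and 3.75 and 3.59 in null BM-MSC. Only 1 wild-type ASC array was well above background, BM-MSC were higher in both genotypes, and the pattern was kept in 15 of 16 settings. Rspo3 changed by -0.49 and 1.13, and Lgr4, a receptor for R-spondins, by -0.51 and 0.84. Among secreted modulators, Sfrp2 was joined by Dkk3 (-0.24 and 0.81).

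The 3 Wnt genes of the other direction were Rspo1, Nkd2 and Fzd2. Rspo1 read -6.03 and -5.25 in wild-type BM-MSC and 0.23 and 0.21 in null BM-MSC, and was at least 1.17-fold lower in null ASC. Only 1 array of each wild-type group was well above background, the opposite signs were kept in 8 of 16 settings, and the difference ran from 3.59 to 7.79 over all of them. Nkd2, an inhibitor inside the cell, changed by 1.38 ± 0.14 and -0.96 ± 0.14, and the receptor Fzd2 by 0.26 and -0.21. Over the whole list, 11 rose and 12 fell in BM-MSC and 12 rose and 11 fell in ASC, and the median difference was -0.21. The promoter of Sfrp2 is shown because this gene had the largest rise in ASC among the opposite-sign genes named (RefSeq, GRCm38.p6, chr3:83766071-83766320, plus strand). It is all in lower case, since the letters of none of the 5 motifs were found in this window.
Sfrp2: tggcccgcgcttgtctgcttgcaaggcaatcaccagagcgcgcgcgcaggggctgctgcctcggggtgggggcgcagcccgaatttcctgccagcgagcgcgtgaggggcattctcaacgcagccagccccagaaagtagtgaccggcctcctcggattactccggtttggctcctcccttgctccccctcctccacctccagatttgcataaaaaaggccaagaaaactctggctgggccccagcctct

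Of 23 prostaglandin and retinoid genes tested, 6 fell in null BM-MSC and rose in null ASC, Aldh1a2 among them. These were 26.1% of the list, beside 5.22% of all autosomal genes tested, and 0 ran the other way. The whole list did not lean to 1 side: the difference was called higher in BM-MSC for 7 and in ASC for 10, and its median was -0.023. Rbp4, the carrier of retinol, read -2.94 and -3.10 in wild-type ASC and 0.32 and 0.26 in null ASC, and -1.35 and -1.69 in wild-type BM-MSC and -2.67 and -2.82 in null BM-MSC. The order of the tissues turned, with null ASC highest. The receptor Rarb, itself a target of retinoic acid, changed by -0.84 ± 0.18 in BM-MSC and 1.03 ± 0.18 in ASC and was kept in 15 of 17 settings. Cyp26b1, which breaks retinoic acid down, changed by -0.97 ± 0.11 and 0.79 ± 0.11. These 4 members were a synthesis enzyme, a carrier, a receptor and a degrading enzyme. The prostaglandin receptors Ptger1 (-0.77 and 1.23) and Ptgfr (-0.61 in BM-MSC, with wild-type ASC not well above background) were the others. The promoter of Aldh1a2 is shown as that of the retinoid gene with the largest difference (RefSeq, GRCm38.p6, chr9:71215539-71215788, plus strand), with a CCAAT box in capitals that begins 36 bases before the start.
Aldh1a2: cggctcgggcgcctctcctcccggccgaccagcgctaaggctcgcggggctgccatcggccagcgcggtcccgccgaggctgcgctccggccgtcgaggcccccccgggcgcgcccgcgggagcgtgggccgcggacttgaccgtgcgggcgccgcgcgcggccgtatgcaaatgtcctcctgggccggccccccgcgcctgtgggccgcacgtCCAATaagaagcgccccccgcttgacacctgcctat

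Of 20 chemokines and cytokines tested, 4 fell in null BM-MSC and rose in null ASC and 0 ran the other way. Cxcl12, which holds blood stem cells in marrow, read 4.22 and 4.42 in wild-type ASC and 5.66 and 5.64 in null ASC, and 8.24 and 8.14 in wild-type BM-MSC and 6.80 and 6.75 in null BM-MSC. All 4 groups were bright, marrow was higher in both genotypes, and the distance between tissues fell. The neutrophil chemokine Cxcl5 read -4.43 and -4.56 in wild-type ASC and -2.65 and -3.53 in null ASC, and 4.28 and 3.89 in wild-type BM-MSC and -2.88 and -3.08 in null BM-MSC. Its fall of 134-fold in BM-MSC brought it to the level of null ASC. Ccl9 changed by -1.40 ± 0.10 and 1.29 ± 0.10. Cxcl14 was at least 3.69-fold lower in null BM-MSC and was not well above background in either ASC group. Over the whole list 3 rose and 11 fell in BM-MSC and 8 rose and 5 fell in ASC, with a median difference of -1.34. Of all genes tested, 19.3% rose and 20.2% fell in BM-MSC and 20.3% rose and 21.2% fell in ASC.

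Cd34, a surface sialomucin of stromal and blood progenitors, read -0.28 and -0.25 in wild-type ASC and 3.0 and 2.77 in null ASC, and 1.47 and 1.58 in wild-type BM-MSC and 0.95 and 0.85 in null BM-MSC. Null ASC was the highest of the 4 groups. Cd34 was kept in 16 of 17 settings, but not where a gene's probes were averaged. The receptor Pdgfra, a marker of mesenchymal progenitors, read 4.18 and 4.19 in wild-type ASC and 4.79 and 4.97 in null ASC, and 4.13 and 4.19 in wild-type BM-MSC and 3.35 and 3.40 in null BM-MSC. Wild-type cells of the tissues overlapped, and null cells did not. Ly6a (Sca-1) changed by -1.37 and 0.43. With Nt5e and Cd200 above, 6 of 21 surface and niche genes had opposite signs, 2 higher and 4 lower in null BM-MSC. That was 28.6%, beside 5.22% of all autosomal genes tested.

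Adipogenic genes with opposite signs, 5 of 13 (38.5%, beside 5.22% of all autosomal genes), were all lower in null BM-MSC and higher in null ASC. Dlk1, which holds preadipocytes back from becoming fat cells, read 1.42 and 1.50 in wild-type ASC and 2.50 and 2.56 in null ASC, and -0.45 and -0.55 in wild-type BM-MSC and -3.0 and -2.84 in null BM-MSC. Fabp4, a fatty acid carrier of fat cells, read -0.11 and -0.23 in wild-type ASC and 0.43 and 0.58 in null ASC, and 2.11 and 1.80 in wild-type BM-MSC and -2.09 and -2.25 in null BM-MSC. In both the fall in marrow was the larger part, 5.35-fold and 17.5-fold. Pparg, the master regulator of fat cells, changed by -0.29 and 0.25, and the early factor Ebf1 by -0.39 ± 0.065 and 0.69 ± 0.065. Cebpa, which acts with Pparg, changed by -1.06 ± 0.26 in BM-MSC and by a factor of at least 5.24 upward in null ASC, kept in 12 of 16 settings. The members thus include both a brake on fat formation and its drivers. The list's median difference was -0.69. Of 4 markers of mature fat cells, Lep and Cfd were not well above background in any of the 4 groups. Adipoq and Plin1 were well above it on at least 1 array of wild-type BM-MSC, and Plin1 also in wild-type ASC. In null cells of both tissues all 4 markers were not well above background.

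BMP and positional genes were divided between the directions. Bmp4, a bone and limb ligand, read -0.16 and -0.41 in wild-type ASC and 2.22 and 2.39 in null ASC, and 6.88 and 6.83 in wild-type BM-MSC and 6.07 and 6.12 in null BM-MSC. It stayed far higher in marrow. The opposite signs ended where its probes were averaged, with a difference of -1.72 in place of -3.35 ± 0.14. Id2, a target of such ligands, changed by -0.62 ± 0.12 and 1.26 ± 0.12, while Tgfb1 and Tgfbr2 (0.25 and -0.19) ran the other way. The cartilage regulator Sox9 changed by -0.58 ± 0.068 and 2.57 ± 0.068, and Matn4, a cartilage matrix protein, by 1.55 ± 0.15 and -1.07 ± 0.15. Of 27 limb and positional factors, Tbx18 (-1.11 ± 0.071 and 0.74 ± 0.071), Lhx2 (-0.81 ± 0.18 and 2.21 ± 0.18, kept in 13 of 17) and Emx2 (-0.39 ± 0.086 and 0.39 ± 0.086, kept in 13 of 17) fell in BM-MSC and rose in ASC. Foxd1 passed in that direction too, at -0.66 in BM-MSC, but neither ASC group was well above background. Shox2 (0.32 ± 0.091 and -0.32 ± 0.091, kept in 8 of 17) and Tbx3 (0.65 and -0.15) did the reverse. Of 32 Hox genes, the neighbours Hoxc5 (0.79 ± 0.076 and -1.16 ± 0.076) and Hoxc4 (0.73 ± 0.081 and -0.56 ± 0.081) rose in BM-MSC and fell in ASC, and Hoxd9 ran the other way (-0.82 ± 0.067 and 0.27 ± 0.067, kept in 13 of 17). Hoxb7, the third of the first kind, was not well above background in either BM-MSC group and was kept in only 3 of 16 settings.

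Genes of the cell cycle and of the p53 response differed between tissues mainly in size. Opposite signs were held by 2.78% of E2F targets and replication genes and 7.14% of p53 targets, beside 5.22% of all autosomal genes tested. None of 28 mitosis genes had opposite signs: 21 rose and 0 fell in BM-MSC and 28 rose and 0 fell in ASC. The difference was called higher in ASC for 27 of the 28, with median changes of 0.40 in BM-MSC and 1.48 in ASC. Of all genes tested, 19.3% rose in BM-MSC and 20.3% in ASC. For the difference, 16.6% of all genes tested were called higher in ASC and 15.3% in BM-MSC. Of 36 E2F targets and replication genes, 30 had the difference called higher in ASC and 0 in BM-MSC, with medians of 0.59 and 1.28, and Rrm1, a subunit of ribonucleotide reductase, was the member of opposite sign (-0.31 ± 0.050 and 0.31 ± 0.050). Of 28 p53 targets, 19 had the difference called higher and 3 lower in BM-MSC, with median changes of -0.56 and -1.18, so the median fall was larger in ASC. Opposite signs were found for the kinase Plk2 (0.56 ± 0.10 and -0.71 ± 0.10) and for Dram1, which drives autophagy (-0.52 ± 0.066 and 0.62 ± 0.066). These larger ASC changes stand beside the larger fall of Rb1 and Trp53 there, whose part in them was not tested. The cell cycle inhibitor Cdkn1b changed by -0.28 ± 0.049 and 0.52 ± 0.049, and the cyclin Ccnd3 by 0.22 ± 0.067 and -0.30 ± 0.067 (kept in 8 of 17). Cdkn2a, whose products brake the cycle through both Rb and p53, read 4.79 and 4.59 in wild-type ASC and 5.10 and 5.11 in null ASC, and 3.17 and 3.08 in wild-type BM-MSC and -2.26 and -1.82 in null BM-MSC. It fell in marrow, and its ASC change of 0.42 ± 0.15 did not pass (adjusted p = 0.0679), so it is not an opposite-sign gene.

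Few interferon genes had the difference called. Of 25 interferon response genes, 12 rose and 0 fell in BM-MSC and 14 rose and 2 fell in ASC. The shares of all genes tested that rose and fell were 19.3% and 20.2% in BM-MSC and 20.3% and 21.2% in ASC. The difference was called for 3 of the 25, beside 31.8% of all genes tested. This does not show that the others moved alike. Opposite signs were held by 2 of the 25, beside 5.22% of all autosomal genes tested. The 2 of opposite sign, Ifit2 (0.34 ± 0.10 and -0.33 ± 0.10) and Ifi27 (0.32 ± 0.088 and -0.28 ± 0.088), had small changes and were kept in 6 of 17 and 3 of 17 settings. The guanylate-binding Gbp2 (-0.78 ± 0.075 and 0.43 ± 0.075) and the class I molecule H2-M3 (-0.44 ± 0.043 and 0.33 ± 0.043) ran the other way, and B2m, the shared chain of class I molecules, changed by 0.16 ± 0.042 and -0.18 ± 0.042, kept in 7 of 17. Of 18 hypoxia and glycolysis genes, Pfkfb3, which speeds glycolysis, was the 1 of opposite sign (-0.78 ± 0.075 and 0.43 ± 0.075). That was 5.56%, close to the 5.22% of all autosomal genes tested. The cadherin Cdh2 changed by -0.20 ± 0.047 and 0.37 ± 0.047, kept in 11 of 17. The neural protein Map2 fell in BM-MSC (-0.93 ± 0.050), and neither ASC group was well above background.

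**Figure D4:**
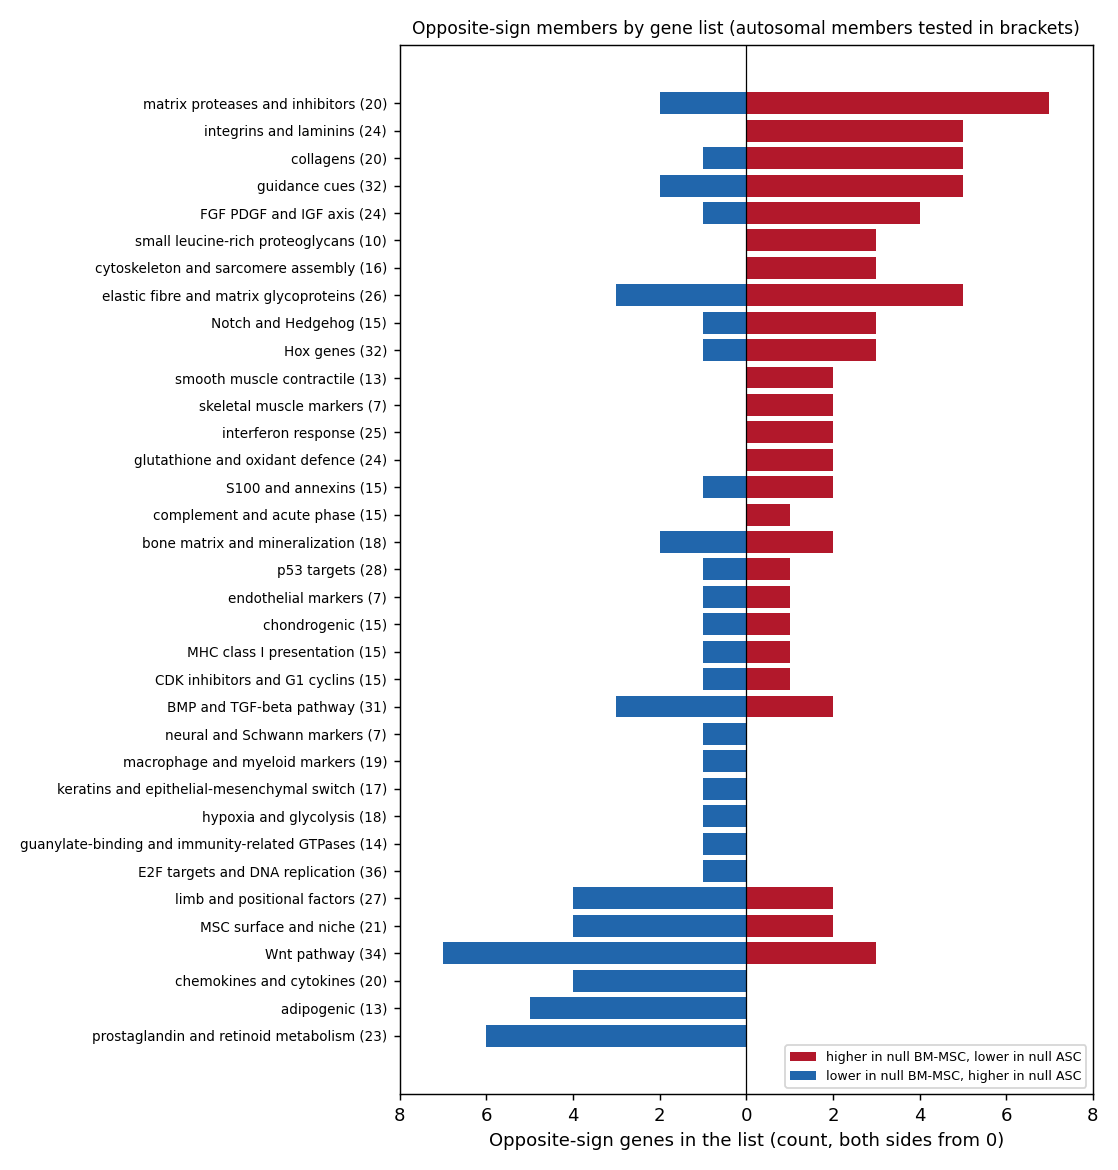
Number of opposite-sign genes (x axis, count) in each gene list that held at least 1 (y axis, with the autosomal members tested in brackets), to the right of 0 for genes that rose in null BM-MSC and fell in null ASC and to the left for the reverse. Matrix proteases reach 7 on the right, the Wnt pathway 7 and retinoid and prostaglandin genes 6 on the left. Over all autosomal genes tested, 2.86% were of the first kind and 2.36% of the reverse. The lists were chosen with earlier results of these data known, share some members and were not tested as sets.

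Opposite changes can bring the tissues closer, draw them apart or turn their order. Of the 615 genes that rose in null BM-MSC and fell in null ASC, 424 were higher in ASC among wild-type cells, and 474 were higher in BM-MSC among null cells. The order turned for 283 of them (46.0%), the distance shrank without turning for 141 and grew for 191. Of the 509 of the other kind, 379 were higher in BM-MSC among wild-type cells and 342 higher in ASC among null cells, with 212 (41.7%) turned, 167 shrunk and 130 grown. Over all autosomal genes tested the order turned for 26.4%. The direction of the changes favours a turn by construction, so these shares are a description. The median distance between tissues was 0.60 in wild-type and 0.67 in null cells for the first set and 0.91 and 0.88 for the second. Lum, Klhl30 and Fhod3 are examples of a turned order, Msln, Sfrp2, Kng1 and Cxcl12 of a distance that shrank, and Bglap2 and Proser2 of one that grew.

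**Figure D5:**
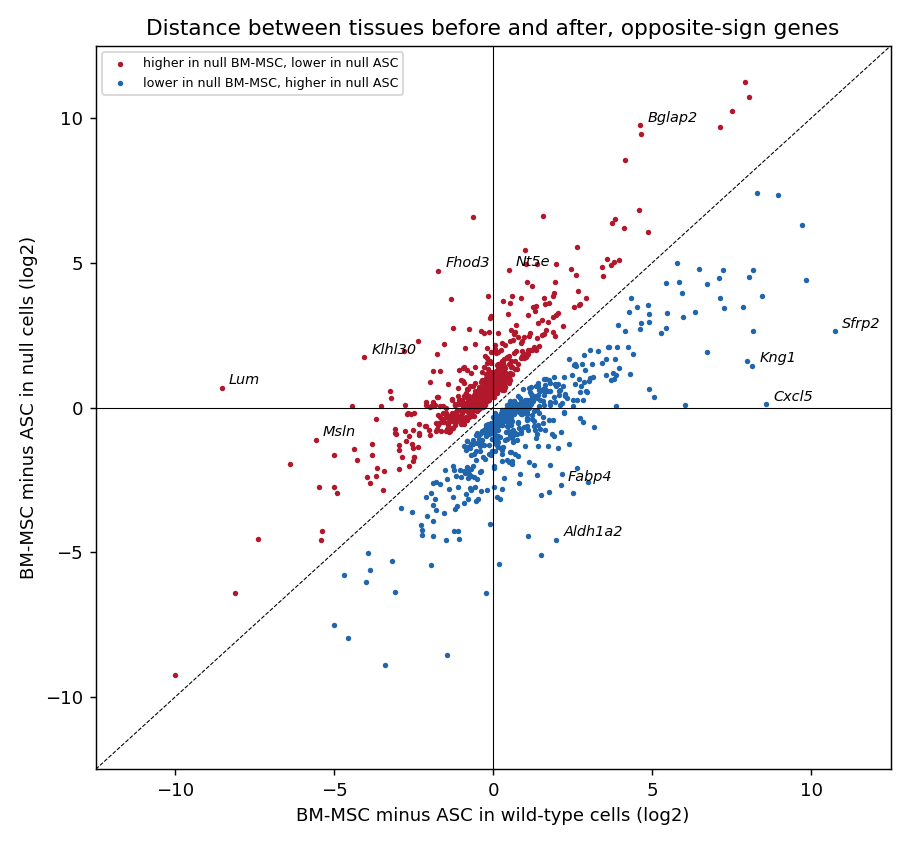
BM-MSC minus ASC in wild-type cells (x axis, log2) against the same in null cells (y axis, log2), 1 point per opposite-sign gene, with the dashed line marking equal distance. Genes that rose in null BM-MSC and fell in null ASC lie above the line by construction and the others below it, and the 283 and 212 genes in the upper left and lower right of the plot turned their order.

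The tumor line's change is no part of the rule that chose these genes, but its arrays entered the shared estimate of spread and the filter on dim probes. Without them 575 and 461 genes passed, 538 of the 615 and 431 of the 509 among them. Of the 615 that rose in null BM-MSC and fell in null ASC, the tumor line lay beyond null BM-MSC for 161 (26.2%), between wild-type and null BM-MSC for 88 (14.3%) and on the far side of wild type for 366 (59.5%). Among the 3586 other autosomal genes called higher in null BM-MSC the shares were 42.3%, 18.7% and 39.0%. Of the 509 genes of the other kind, it lay beyond null for 159 (31.2%), between for 87 (17.1%) and beyond wild type for 263 (51.7%), beside 37.0%, 23.3% and 39.7% of the 3799 other genes lower in null BM-MSC. The difference between these shares was not tested. Osteocalcin shows the larger class: Bglap2 read -3.78 and -3.98 in the tumor line, far below wild-type BM-MSC, and Bglap was not well above background there. Decorin (8.56 and 8.58), Lum (5.25 and 5.23) and Rspo1 (4.12 and 4.07) read higher in the tumor line than in null BM-MSC. Aldh1a2 (-5.26 and -5.16) and Cxcl12 (2.27 and 2.38) read lower than in null BM-MSC, while Batf3 (3.25 and 3.24) and Dlk1 (6.66 and 6.70) stood above wild-type BM-MSC. The tumor line arrays were on another slide, so slide and group cannot be told apart here.

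Other probes and positions gave further descriptions. Of 228 further probes for 177 of the 615 genes, 176 (77.2%) had the same pair of signs, and of 134 for 113 of the 509 genes, 98 (73.1%) did. These counts hold only probes that every group had well above background on 1 array or both. Among them were 30 of genes named by rule, 30 with the same signs. Of 18 further probes of named genes that were dimmer in some group, 10 had the same signs. Opposite-sign genes were on every autosome, from 3.94% of the genes tested on chromosome 12 to 7.31% on chromosome 16. Neighbours within 100 kb that shared a direction included Dcn and Lum (mm9 chromosome 10, 96980233 to 97035269), Bglap3, Bglap2 and Bglap (chromosome 3, 88172540 to 88188366), Hoxc5 and Hoxc4, Kng2 and Kng1, and Sfrp2 with the receptor Tlr2. The osteocalcin genes were followed by Sema4a, of the opposed direction. Among the highest probes, Klhl30 lay on chromosome 1, 93258755 to 93258814, Sfrp2 on chromosome 3, 83577864 to 83577923 and Aldh1a2 on chromosome 9, 71143931 to 71143990, all mm9. Just inside the threshold stood Tle3, a co-repressor in the Wnt pathway (-0.23 ± 0.056 in BM-MSC with adjusted p = 0.0195 and 0.17 ± 0.056 in ASC with adjusted p = 0.0499, kept in 5 of 17 settings). Just outside stood Prss16, a thymic protease, at least 1.13-fold lower in null BM-MSC (adjusted p = 0.0501) and changed by 1.66 ± 0.49 in ASC.

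Markers of cell types were read in all groups, because in bulk RNA fewer cells of a type and less RNA per cell cannot be told apart. All 10 mesenchymal stromal markers were well above background in every group, at a log2 summed level of 8.26 to 8.30 in wild-type ASC, 8.26 to 8.28 in null ASC, 8.76 to 8.89 in wild-type BM-MSC and 8.66 to 8.75 in null BM-MSC. The 6 osteoblast markers summed to -1.16 in wild-type ASC, -1.04 to -0.52 in null ASC, 4.72 to 4.79 in wild-type BM-MSC and 6.35 to 6.40 in null BM-MSC. The osteocalcin rise in marrow thus stands beside a higher osteoblast sum, of which Bglap is a member. The 9 myeloid markers summed to 4.72 to 4.96, 3.90 to 4.0, 4.75 to 4.77 and 4.39 to 4.47 in the same order. These sums were lower in null cells of both tissues. On both arrays of a group 7, 5, 6 and 6 of the 9 markers were well above background. Tyrobp and Spi1 were not well above it in any of the 4 groups. Cd74, which myeloid cells carry, changed by -1.14 ± 0.26 and 1.84 ± 0.26, kept in 13 of 17.

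The 6 endothelial markers summed to 2.10 to 2.14, 2.20 to 2.28, 1.90 to 2.01 and 1.84 to 1.88 in that order. On both arrays of a group 4, 4, 3 and 2 of the 6 were well above background. Cdh5 and Tek were not well above it in any of the 4 groups. The endothelial marker Vwf changed by -1.44 ± 0.19 and 0.70 ± 0.19, kept in 10 of 16. The 4 neural and Schwann markers summed to 2.40 to 2.46, 1.93 to 2.05, -0.24 to -0.031 and -0.60 to -0.42, and were lower in null cells of both tissues. The sum of 5 lymphoid and erythroid markers on the array lay between -0.021 and 0.19. The 4 skeletal muscle and the 4 mature fat cell markers summed to -5.0 to -4.33 and to -4.36 to -3.59. The part of these cell types in the opposite changes was not tested.

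Sex-linked genes, left out of the autosomal set, moved with the groups as well. Xist, which silences one X chromosome in female cells, read 4.67 and 4.19 in wild-type ASC and 4.55 and 4.42 in null ASC, and 2.05 and 2.20 in wild-type BM-MSC and -4.20 and -4.55 in null BM-MSC. The Y-linked Ddx3y read -0.48 and -0.66 in wild-type ASC and -1.46 and -1.59 in null ASC, and 1.66 and 1.64 in wild-type BM-MSC and 2.0 and 1.89 in null BM-MSC. Both were well above background in all 4 groups, Xist was far lower in null BM-MSC than elsewhere, and both differed between tissues in their change (-6.56 ± 0.27 and 1.25 ± 0.14). The sex of the donors, and how many were pooled, is not given in the labels, and the part of a change of donors or clones in the autosomal differences was not tested.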

How the data were processed

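Total RNA of 10 mouse cell cultures was labelled with Cy3 and read on an Agilent single-colour array for each culture, with 5 groups of 2 cultures. The deposited scanner files hold spot intensity values from the authors, background-subtracted by the scanner software (per the file headers Feature Extraction, version 10.7.3.1). Probe coordinates are mm9 per the file headers. The deposited series matrix holds values on the log2 scale, made by the authors in a way not given in the sources used here (limma is named in the submitters' processing notes), and served only as an alternative. Its medians were 5.04 to 5.06, its columns correlated at r = 0.989 to 0.993 with the scanner values of the same array, and whether values were centred is unknown.

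Outlier spots were left out, spots of a probe averaged, and the 75th percentile of each array (483 to 621 scanner units) subtracted on the log2 scale. Of 55681 probes, 27235 were named by accession, 3581 by symbol, 565 by synonym and 41 by symbol in another case from RefSeq, and 24259 kept the file's name. The brightest probe stood for a gene. The 22596 genes that some group had well above background in duplicate were fitted in 1 model of 5 group means with limma 3.58.1 in R 4.3.3, two-sided, with Benjamini-Hochberg adjustment over all genes and a threshold of 0.05. The spread rests on 5 residual and 1.35 prior degrees of freedom, so p-values measure only the spread between duplicate cultures. The median SE was 0.0946 for a change in 1 tissue and 0.134 for the difference (log2). On simulated data of this design 67 of 100 genes given opposite changes of 1 (log2) in the tissues and 84 of 100 given changes of 2 were called as such, with 0 of the other genes. Those other genes changed in neither tissue, so the 0 does not cover genes that change in 1 tissue or the same way in both. Far fewer genes changed there than in the real data, so the shares recovered need not carry over.

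Named by rule were Rb1, Trp53, the 12 opposite-sign genes per direction that ranked highest by the smaller of their 2 changes and were well above background in all 4 groups, up to 3 with a dim group, up to 4 from each of 38 lists, and those next to the threshold. Genes known only by an accession, clone or model name were not chosen. Some genes are not reported here. Other list members were named after their values were seen. A group with no array well above background allows only a bound: the brighter group's mean over the dimmer one's, where a dim array counts at its own signal or, if that is lower, at the array's faintest well-measured signal. Members and lists were chosen with earlier results of these data known. Alternatives were another background correction, 3 other scalings, 2 filters, the mean of a gene's probes, the 8 arrays alone, a replicate block and leaving out each array.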

Additional observations from a re-analysis of the deposited data

Results flagged for a closer look

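The change from wild-type to null cells differed between the 2 tissues, by the limma test of the difference itself, for 7195 of 22596 genes. Both targeted genes were among them, with a smaller fall in BM-MSC: 1.93 for Rb1 and 4.10 for Trp53 (log2, BM-MSC change minus ASC change). For Trp53 not all 8 arrays were well above background. The opposite-sign genes named in the text whose groups were all measured follow, and their difference follows from how they were chosen.

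Among leading genes of no list, higher in null BM-MSC and lower in null ASC, the difference was 5.79 for Klhl30, 4.82 for Bglap3, 4.46 for Msln, 4.44 for Proser2, 4.03 for Slc22a23, 4.0 for Plcg2, 3.46 for Rab27b and 3.27 for Etl4. Among matrix, cartilage and bone genes, in the same direction, the difference was 9.23 for Lum, 5.13 for Bglap2, 4.44 for Dcn, 4.43 for Bglap, 3.35 for Col8a1, 2.62 for Matn4, 2.49 for Col4a1 and 2.22 for Col4a2. Then followed 2.11 for Tnc, 1.15 for Loxl2 and 0.75 for Fmod. Among matrix enzymes and adhesion receptors, in the same direction, the difference was 3.27 for Itga7, 2.23 for Timp3, 2.15 for Lama5, 1.73 for Mmp14, 1.37 for Itga3, 1.37 for Mmp2 and 1.09 for Itga11. Among contractile and cytoskeletal proteins, in the same direction, the difference was 6.46 for Fhod3, 3.62 for Myh11, 2.04 for Acta1, 1.63 for Mylk, 1.00 for Daam1, 0.87 for Tnnt1 and 0.71 for Nexn. Among growth factor, Wnt, BMP, Notch and guidance signals, in the same direction, the difference was 4.65 for Fgf18, 2.78 for Dll1, 2.70 for Igfbp2, 2.34 for Nkd2, 1.88 for Sema3b, 1.47 for Efna5, 1.22 for Efnb2 and 1.18 for Efna1. Then followed 1.15 for Jag1, 1.07 for Tgfb1, 1.01 for Fgfr1 and 0.81 for Notch2. Among retinoid, fat cell and oxidant genes, in the same direction, the difference was 1.23 for Sod3 and 0.52 for Sod2. Among surface markers, chemokines and immune genes, in the same direction, the difference was 4.27 for Nt5e, 3.83 for Flt1, 2.73 for S100b, 1.49 for C2, 0.84 for S100a16, 0.67 for Ifit2, 0.59 for Ifi27 and 0.34 for B2m. Among cell cycle and p53 genes, in the same direction, the difference was 1.27 for Plk2 and 0.53 for Ccnd3. Among Hox and positional genes, in the same direction, the difference was 1.95 for Hoxc5, 1.28 for Hoxc4 and 0.64 for Shox2.

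Among leading genes of no list, lower in null BM-MSC and higher in null ASC, the difference was -7.08 for Rprm, -6.70 for Kng1, -5.48 for Batf3, -4.70 for Pcp4l1, -4.61 for Gfra2, -3.72 for Hs3st6, -3.67 for Galnt13 and -3.04 for Tprg. For Tle3, next to the threshold, it was -0.40. Among matrix, cartilage and bone genes, in the same direction, the difference was -3.16 for Sox9, -2.07 for Col18a1, -1.98 for Fbln1, -1.94 for Vcan, -1.38 for Enpp1 and -1.05 for Tnfrsf11b. Among matrix enzymes and adhesion receptors, in the same direction, the difference was -0.57 for Cdh2. Among growth factor, Wnt, BMP, Notch and guidance signals, in the same direction, the difference was -8.11 for Sfrp2, -5.41 for Rspo2, -3.35 for Bmp4, -2.55 for Fgf7, -2.03 for Gas1 and -1.88 for Id2. Among retinoid, fat cell and oxidant genes, in the same direction, the difference was -6.57 for Aldh1a2, -4.80 for Fabp4, -4.54 for Rbp4, -3.48 for Dlk1, -1.87 for Rarb, -1.76 for Cyp26b1, -1.20 for Pfkfb3 and -1.08 for Ebf1. Among surface markers, chemokines and immune genes, in the same direction, the difference was -8.47 for Cxcl5, -3.78 for Cd34, -2.98 for Cd74, -2.75 for Cxcl12, -2.69 for Ccl9, -2.14 for Vwf, -1.48 for Pdgfra and -1.28 for S100a3. Then followed -1.21 for Gbp2 and -0.77 for H2-M3. Among cell cycle and p53 genes, in the same direction, the difference was -1.14 for Dram1, -0.80 for Cdkn1b and -0.62 for Rrm1. Among Hox and positional genes, in the same direction, the difference was -3.01 for Lhx2, -1.85 for Tbx18, -1.09 for Hoxd9 and -0.77 for Emx2.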

How the results depend on the processing

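Counts moved with the processing. In the 17 alternative settings no gene of the 615 or the 509 passed with both signs turned. The settings reuse the same arrays, so such a pass was unlikely from the start and its absence is no test of direction. Of the 120 opposite-sign genes named by rule, 98 to 116 were called with opposite signs again, including all 103 that passed a filter on all 8 arrays. That filter left the values of the 103 as they were, so it is no separate support. With each array's median subtracted, 4380 differences, 5869 BM-MSC changes, 321 genes higher in null BM-MSC and lower in null ASC and 239 of the reverse passed, against 7195, 8920, 615 and 509. With no filter on dim probes the last 2 counts were 391 and 336. The counts at 2-fold in both tissues, 43 and 62, were 18 and 13 with normexp background correction. The second was 34 with the series matrix values and 30 with that filter on all 8 arrays. The cause of these shifts was not tested.

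Leaving out each array in turn gave 5395 to 6514 differences, 6448 to 8969 BM-MSC changes and 7444 to 9012 ASC changes. The opposite-sign counts were 398 to 557 and 358 to 461, and at 2-fold 36 to 47 and 51 to 73. The lowest of the first, 398, came without replicate 1 of null BM-MSC. The lone array left is then assumed to vary like the other groups.

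Replicate numbers did not pair the cultures: deviations of arrays with the same number correlated at -0.12 to 0.12. With the number as a replicate block 6707 differences, 8507 BM-MSC and 8974 ASC changes passed, with 573 and 455 opposite-sign genes, 41 and 60 of them at 2-fold. The difference of Enpp1 turned to 0.23 when a gene's probes were averaged. A sign in 1 tissue turned for Bglap likewise, for Map2 with normexp and for Hoxb7 with the series matrix values. No scaling moved the median change of all genes by more than 0.1 (log2). The number of arrays, and for the 20 and 59 opposite-sign genes with a group not well above background the signal, limits these results.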
